A study of Mus musculus with 4 samples.

Results

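Death and damage response targets of the transcription factor p53 were followed in mouse embryonic stem cells that had lost Exosc3. This gene encodes a core part of the RNA exosome, the complex that trims and degrades many RNAs from their 3′ ends. The set was given by symbol and has 10 genes: Perp, Fas, Tnfrsf10b, Aen, Trp53inp1, Phlda3, Ddb2, Polk, Ephx1 and Dcxr. Of these, 9 had a row among the 22883 gene models of the deposited table, each with a single row. Ddb2, which encodes the damage-recognition subunit of nucleotide excision repair, was not analysed here. In all 4 libraries the cells were V6.5 embryonic stem cells with the Exosc3 CKO (conditional knockout) genotype, grown without feeders. Exosc3-depleted cells had been without doxycycline for 3 days, and Exosc3-present cells had stayed in 0.1 µg/ml doxycycline for the same time. Each group had 2 libraries of total RNA, stranded and depleted of ribosomal RNA. The labels do not say which clone each library came from or whether replicates were separate cultures, so p-values measure only the spread between these samples, which may be technical. Doxycycline and Exosc3 changed together, and their parts cannot be told apart.

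p53 is held at a low level by ubiquitin ligases and accumulates when DNA or other parts of the cell are damaged. It then binds response elements near its target genes, whose products stop the cell cycle, repair DNA, remove reactive compounds or start apoptosis. Embryonic stem cells hold abundant p53 and are known for a ready apoptotic response to DNA damage. The genes described here fall into 3 roles: death genes at the membrane (Perp, Fas, Tnfrsf10b), intracellular death and kinase regulators (Aen, Trp53inp1, Phlda3), and enzymes that tolerate or remove damage (Polk, Ephx1, Dcxr).

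Exosc3 itself was at 0.635 and 0.691 FPKM in Exosc3-depleted libraries, against 24.2 and 23.2 FPKM in Exosc3-present libraries. FPKM divides fragments by the length of the gene model and by the library total, so levels of different genes can be compared per length. The library totals recovered from the table were 38095704 and 41968329 fragments in Exosc3-depleted libraries and 60851765 and 55233399 in Exosc3-present ones. Of 9336 rows with a mean of at least 0.5 FPKM, 1177 were higher and 2806 lower in Exosc3-depleted cells (limma on log2(FPKM + 0.5), Benjamini-Hochberg adjusted p under 0.05). The median row stood at log2 -0.27. After median-of-ratios scaling the median row was at 0.01, and rows called higher made up 52.5% of the changed rows, compared with 29.6% before it. Of 8 stem cell markers listed, Sox2 and Nanog had no row matched by symbol. The other 6 were present in every library and were tested: 0 rose and 4 fell (median log2 -1.20), namely Zfp42, Esrrb, Dppa5a and Tdgf1. The count of 0 rises was the same at an unadjusted p under 0.05 and with limma-voom. Their summed level was 1953 and 1295 FPKM in Exosc3-depleted cells, against 3072 and 3081 FPKM in Exosc3-present cells. Pou5f1, at 413 and 286 FPKM in Exosc3-depleted cells and 471 and 434 FPKM in Exosc3-present cells, did not pass. Of 8 tested primitive endoderm markers 6 rose and 0 fell (median log2 0.90), with 0 falls also at an unadjusted p under 0.05 and with limma-voom. They summed to 174 and 173 FPKM in Exosc3-depleted cells, against 61.4 and 74.6 FPKM in Exosc3-present cells. Of 10 fibroblast markers 5 were tested, of which 3 rose (Vim, Mmp2 and Twist1), Thy1 fell (log2 -2.01) and Col1a1 did not pass. They summed to 90.3 and 80.9 FPKM in Exosc3-depleted cells, against 35.7 and 39.8 FPKM in Exosc3-present cells, mostly Vim, while Dcn, Lum and Postn were at 0 in all 4 libraries. Gata6, Sox17 and Twist1 reached the filter only through Exosc3-depleted libraries, and with no filter on low values 1 stem cell marker fell, 3 endoderm markers rose and 1 fibroblast marker rose. The part of these marker changes in the results below was not tested. In bulk RNA, fewer cells of a type and less RNA per cell cannot be told apart.

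The 9 genes were higher in Exosc3-depleted cells in both libraries, and 8 of them passed the test. Both Exosc3-depleted values lay above both Exosc3-present values for 9 of 9 genes, where 22.2% of all tested rows did so. The 8 genes that rose stand beside 12.6% of tested rows called higher. Counts of the main fit for the gene lists below stand beside the same 12.6% called higher and 30.1% called lower. Under median-of-ratios scaling, quantile normalization and scaling without the 50 highest rows, 16.5% to 18.8% of tested rows were called higher. Those 3 other scalings called 1330 to 1795 of 9336 rows lower. With no filter on low values 3.45% were called higher and 1132 of 22883 rows lower. Fits with 1 library left out called other shares, so their list counts do not stand beside 12.6% and 30.1%. Ratios of mean FPKM ran between 1.95 for Aen and 53.2 for Fas, and the median log2 fold change of the 9 genes was 1.94. Polk did not pass (adjusted p = 0.0522), and 0 of the 9 genes were called lower by limma, at an unadjusted p under 0.05 or by limma-voom on recovered fragments. Fas reached the filter only through its Exosc3-depleted libraries. With rows filtered on the Exosc3-present libraries instead, 7 of 8 genes rose, beside 9.01% of tested rows.

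Response elements for p53 are built of pairs of decamer half-sites with a CNNG core, and the promoters of the genes were read for them. RefSeq promoter windows (GRCm38.p6, 250 bases before to 50 after a start) were given for 6 of the 10 genes, in 8 windows. The table holds none for Perp, Tnfrsf10b, Trp53inp1 and Ddb2. The half-site pattern reads the same on both strands, though a sequence that matches it need not. Full half-sites lay in windows of Aen and Polk, and in 8.36% of all 32851 windows. They are shown with their flanks, half-site in capitals, since these are the members whose start region holds one.
Aen half-site: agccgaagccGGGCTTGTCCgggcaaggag
Polk half-site: catgtagcttGAACTAGCCTcaaacttatt
The Aen stretch is chr7:78895927-78895956 (plus strand). Its half-site begins 121 bases upstream of one RefSeq start of Aen and 10 bases downstream of the other. The Polk stretch is chr13:96519399-96519428 (minus strand), and its half-site begins 231 bases upstream of one of the 2 starts listed for that gene.

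The closest match to a full element (a pair of half-sites with no spacer, 20 bases) is printed for the best window of each gene, with matching bases in capitals, to show how near each window comes.
Aen: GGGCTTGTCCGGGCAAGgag
Polk: cAtgTAGCTTGAACTAGCCT
Dcxr: cAtCTTGCCCAGGCAgGaCC
Ephx1: AGGCcAGCTTGGGCTctTgT
Phlda3: GGcCcTGTCCGGGCggGTgC
Fas: GGGCTTtaCgAAGaTTGTgT
Aen and Polk match at 17 of 20 positions, as did at least 1 stretch in 6.29% of all windows. Dcxr and Ephx1 match at 16 (30.2% of windows) and Phlda3 and Fas at 15 (76.6% of windows), the median of all windows. These last 4 genes had log2 fold changes of 1.71 (Fas) to 2.88 (Dcxr), against 0.95 for Aen and 0.98 for Polk. Perp, Tnfrsf10b and Trp53inp1, which have no window, rose as well. Whether match and rise are related was not tested. These letters cover only the window at the start, and response elements can lie elsewhere.

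**Figure D1:**
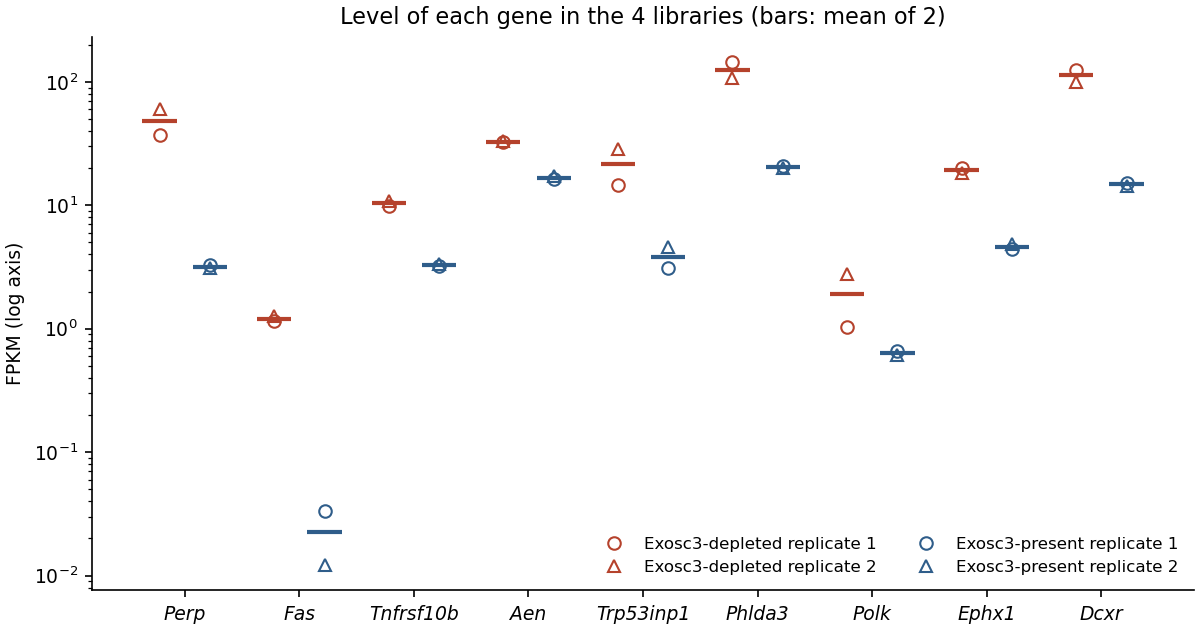
FPKM (log axis) of the 9 genes in each library, with Exosc3-depleted libraries in red at the left of each gene and Exosc3-present libraries in blue at the right. Circles are replicate 1, triangles replicate 2 and bars the mean of both. The red points lie above the blue points for every gene, most widely for Fas and Perp, and the 2 red points of Polk and Trp53inp1 lie far apart.

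Perp encodes a membrane protein of the PMP22 family that p53 induces in dying cells and that also sits in desmosomes of epithelia. Perp (uc007emz.1) was at 36.9 and 60.0 FPKM in Exosc3-depleted libraries, against 3.26 and 3.13 FPKM in Exosc3-present libraries. The lower Exosc3-depleted value was still 11.3 times the higher Exosc3-present one. The log2 fold change came to 3.69, with an SE of 0.25 and a limma adjusted p of 0.000253, which gave it rank 9 among all tested rows by size of rise. Perp stood above 90.8% and 94.6% of tested rows in Exosc3-depleted replicates 1 and 2, and above 41.1% and 38.8% in Exosc3-present replicates 1 and 2.

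Since Perp also belongs to epithelial cells, the keratin and trophectoderm markers are given beside it. Of 11 markers 6 were tested, of which 4 rose (Krt7, Krt8, Krt18 and Krt19) and Epcam fell. Under the 3 other scalings and with no filter on low values, 0 markers were called lower. With rows filtered on the Exosc3-present libraries 7 markers were tested, Krt14 among them, and 4 rose and 2 fell. That fit called 9.01% of rows higher and 2932 of 9130 lower. The summed level of the 11 markers was 224 and 234 FPKM in Exosc3-depleted libraries and 135 and 149 FPKM in Exosc3-present libraries. The keratins of stratified epithelium, where Perp is best known, were low: Krt5 was at 0.336 and 0.163 FPKM in Exosc3-depleted cells and 0.0075 and 0.00827 FPKM in Exosc3-present cells, and Krt14 at 0.142 and 0.144 FPKM in Exosc3-depleted cells and 0.445 and 0.567 FPKM in Exosc3-present cells. Transcription factor genes of the trophectoderm were too low to be tested. Cdx2 was at 0.245 and 0.156 FPKM in Exosc3-depleted cells (20 and 14 fragments), against 0.023 and 0.0169 FPKM in Exosc3-present cells (3 and 2 fragments). Gata3 was at 0.098 and 0.126 FPKM in Exosc3-depleted cells, against 0 and 0.00563 FPKM in Exosc3-present cells, and Elf5 at 0 in both Exosc3-depleted libraries, against 0.0371 and 0.0163 FPKM in Exosc3-present cells. The part of these cells in the rise of Perp was not tested.

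Fas and Tnfrsf10b encode death receptors, which carry a death domain in the cytoplasm and start the caspase cascade when their ligands bind. Fas (uc008hgi.2) was at 1.15 and 1.27 FPKM in Exosc3-depleted libraries, or 65 and 79 fragments. In Exosc3-present libraries it was at 0.0332 and 0.0122 FPKM, or 3 fragments and 1 fragment. The receptor gene was therefore close to the limit of detection in Exosc3-present cells and low, but clearly counted, in Exosc3-depleted cells. Pooled over each group, the fragment rate was 52.2 times higher in Exosc3-depleted cells, with an exact 95% interval of 19.95 to 194 that covers counting error only. The log2 fold change of Fas was 1.71 (SE 0.14, limma adjusted p = 0.000383) on the log2(FPKM + 0.5) scale, which understates the change of a gene this low. It was 3.42 with a pseudocount of 0.1 and 1.11 with a pseudocount of 1.

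Tnfrsf10b is the mouse receptor for the death ligand TRAIL. Tnfrsf10b (uc007umv.2) was at 9.86 and 10.9 FPKM in Exosc3-depleted libraries, against 3.24 and 3.35 FPKM in Exosc3-present libraries. Replicates of each group lay close together, and the groups were 3.14-fold apart by means (log2 1.51, SE 0.18, limma adjusted p = 0.00117). The ligand genes were not detected or nearly so: Fasl was at 0 in all 4 libraries, and Tnfsf10, the gene for TRAIL, was at 0.00531 and 0.00964 FPKM in Exosc3-depleted libraries and at 0 in Exosc3-present libraries.

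Of 17 genes listed for death receptor signalling 11 were tested, of which 1 rose and 3 fell, with a median log2 fold change of 0.09. Among all tested rows 12.6% were called higher and 30.1% lower, so the counts are near that background. Pidd1, a death domain protein that p53 induces, was at 16.3 and 13.5 FPKM in Exosc3-depleted cells, against 3.94 and 4.19 FPKM in Exosc3-present cells (log2 1.75, limma adjusted p = 0.00081). Faim, an inhibitor of Fas-driven death, fell by 1.28 on the log2 scale. Some further members were picked after their values were seen. Bid, which carries the receptor signal to mitochondria, fell by 0.89 and the adaptor gene Tradd by 0.72. The adaptor gene Fadd (log2 0.09) did not pass. Casp8, the initiator caspase of both receptors, was too low to be tested, at 0.0326 and 0.0988 FPKM in Exosc3-depleted cells and 0.136 and 0.173 FPKM in Exosc3-present cells. Under each of the 3 other scalings the list had 2 higher and 1 to 2 lower, beside 16.5% to 18.8% of tested rows called higher and 1330 to 1795 of 9336 lower. With 1 library left out the list median ran from log2 -0.15 to 0.07.

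Aen, the apoptosis-enhancing nuclease, is a p53-induced exonuclease that cuts DNA in dying cells. Aen (uc009hxq.1) was at 32.5 and 33.1 FPKM in Exosc3-depleted libraries, against 16.3 and 17.3 FPKM in Exosc3-present libraries. The rise was log2 0.95 with an SE of 0.16 (limma adjusted p = 0.00451), and replicates nearly coincided. With Polk it was the lowest of the 9 genes, and Polk was the lower of the pair under the 3 other scalings and with a pseudocount of 1. Aen did not pass when either Exosc3-present library was left out (adjusted p = 0.0759 without replicate 1, 0.0526 without replicate 2). The exonuclease genes listed as its relatives gave no rise: of 4 tested, 3 fell and Rexo2 did not pass. Rexo1 was at 6.54 and 5.47 FPKM in Exosc3-depleted cells and 9.40 and 10.4 FPKM in Exosc3-present cells (log2 -0.68), and Isg20l2 had a log2 fold change of -0.74. None of these 3 falls held under the 3 other scalings or without either Exosc3-present library, and Rexo2 was called higher under quantile normalization and under scaling without the 50 highest rows.

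Trp53inp1 encodes a stress protein that works with p53-modifying kinases and also binds autophagy proteins. Trp53inp1 (uc008rzb.1) was at 14.7 and 28.6 FPKM in Exosc3-depleted libraries, against 3.11 and 4.59 FPKM in Exosc3-present libraries. Replicates differed more than for most of the other genes, but the groups did not overlap (log2 2.30, SE 0.33, limma adjusted p = 0.00225). It did not pass when all 22883 rows were fitted, low values included (adjusted p = 0.103). Its paralogue Trp53inp2 was at 1.39 and 1.34 FPKM in Exosc3-depleted cells and 2.67 and 2.70 FPKM in Exosc3-present cells (log2 -0.77). Of 8 tested genes in the list of Trp53inp2 and autophagy partners 0 rose and 4 fell (median log2 -0.47), among them Gabarapl2 (log2 -0.95). The falls numbered 1 to 2 with the 3 other scalings, where up to 1 gene rose, and 0 to 1 when either Exosc3-present library was left out. The count of 0 rises was the same at an unadjusted p under 0.05 and with limma-voom, here and for the lists of translesion synthesis and of epoxide and carbonyl metabolism below.

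Phlda3 encodes a small protein with a membrane-binding pleckstrin homology domain that keeps the survival kinase AKT off the membrane. Phlda3 (uc007ctq.2) was at 145 and 107 FPKM in Exosc3-depleted libraries, against 20.7 and 20.01 FPKM in Exosc3-present libraries. It was the most abundant of the 9 genes per length in both groups, and rose by log2 2.58 (SE 0.20, limma adjusted p = 0.000296). The other family members went opposite ways. Phlda1 was at 6.09 and 6.76 FPKM in Exosc3-depleted cells and 0.791 and 0.714 FPKM in Exosc3-present cells (log2 2.47). Phlda2 was at 14.7 and 10.6 FPKM in Exosc3-depleted cells and 39.7 and 40.5 FPKM in Exosc3-present cells (log2 -1.64). The kinase genes Akt1 (log2 -0.02) and Akt2 (0.09) did not pass.

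Polk encodes DNA polymerase kappa, which copies past damaged bases. Polk (uc007rne.1) was at 1.03 and 2.80 FPKM in Exosc3-depleted libraries, or 166 and 496 fragments, and at 0.661 and 0.613 FPKM in Exosc3-present libraries, or 170 and 143 fragments. The 2 Exosc3-depleted libraries were 2.71-fold apart, wider than for any other of the 9 genes, and the lower one was 1.56 times the higher Exosc3-present value. The log2 fold change was 0.98 (SE 0.34, 95% interval 0.19 to 1.78), and limma's adjusted p was 0.0522. Without Exosc3-depleted replicate 1 it was 1.54, and without Exosc3-depleted replicate 2 it was 0.43; Polk passed in both cases, as it did without Exosc3-present replicate 1 (adjusted p = 0.0374) and after median-of-ratios scaling (adjusted p = 0.0103). A fit with 1 Exosc3-depleted library assumes that it varies like the Exosc3-present pair, whose Polk values lay close together.

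The other translesion synthesis genes were not higher. Of 8 tested 0 rose and 5 fell, with a median log2 fold change of -0.72, beside 30.1% of all tested rows called lower. Pcna, the sliding clamp that recruits these polymerases, was at 41.9 and 42.6 FPKM in Exosc3-depleted cells, against 112 and 121 FPKM in Exosc3-present cells (log2 -1.45, limma adjusted p = 0.000857). Mad2l2, a subunit of polymerase zeta, fell by 0.91, though not under the 3 other scalings or without either Exosc3-present library. Polh, the polymerase eta gene and another known p53 target, was chosen after its values were seen: it fell by 0.95 (limma adjusted p = 0.0196). With the 3 other scalings 1 to 2 of the 8 genes fell, beside 1330 to 1795 of 9336 tested rows called lower. With 1 library left out the list median ran from log2 -0.77 to -0.55.

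Of 17 tested genes of nucleotide excision repair, the pathway of Ddb2, 2 rose and 4 fell (median log2 -0.46), near the shares of all tested rows (12.6% higher, 30.1% lower). Ercc5, the endonuclease that cuts on the 3′ side of the damage, was at 6.84 and 11.2 FPKM in Exosc3-depleted cells, against 2.28 and 2.36 FPKM in Exosc3-present cells (log2 1.72, limma adjusted p = 0.00251). Gtf2h5, a small subunit of the TFIIH helicase complex, was at 5.58 and 5.51 FPKM in Exosc3-depleted cells, against 18.2 and 18.2 FPKM in Exosc3-present cells (log2 -1.63). The genes that work beside Ddb2 were chosen after their values were seen: its partner Ddb1 was at log2 0.38 and did not pass, and Xpc, the other damage sensor and a known p53 target, fell by 0.79 (limma adjusted p = 0.0154). Gtf2h5 and Xpc were not both called lower under any of the 3 other scalings, where the list had 1 fall. With each of the 3 other scalings 4 rose and 1 fell, beside 16.5% to 18.8% of tested rows called higher and 1330 to 1795 of 9336 lower. With 1 library left out the list median ran from log2 -0.62 to -0.22.

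Ephx1 and Dcxr encode enzymes that remove reactive compounds. Ephx1, the microsomal epoxide hydrolase (uc007dwz.1), was at 19.99 and 18.3 FPKM in Exosc3-depleted libraries, against 4.41 and 4.85 FPKM in Exosc3-present libraries (log2 1.94, SE 0.18, limma adjusted p = 0.000485). Dcxr, which reduces dicarbonyls and L-xylulose (uc007mui.1), was at 125 and 100.4 FPKM in Exosc3-depleted libraries, against 15.1 and 14.4 FPKM in Exosc3-present libraries. Its lower Exosc3-depleted value was 6.64 times its higher Exosc3-present value, with log2 2.88 (SE 0.18, limma adjusted p = 0.000201). For both genes the spread between replicates was small beside the distance between groups.

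The enzymes listed around them were not higher. Of 11 tested genes of epoxide and carbonyl metabolism 0 rose and 6 fell (median log2 -0.69). Ephx2, the soluble epoxide hydrolase, was at 3.06 and 4.13 FPKM in Exosc3-depleted cells, against 9.08 and 10.9 FPKM in Exosc3-present cells (log2 -1.37, limma adjusted p = 0.00306). Xylb, the xylulokinase that acts after Dcxr in the glucuronate pathway, was at 0.571 and 0.713 FPKM in Exosc3-depleted cells, against 2.40 and 2.33 FPKM in Exosc3-present cells (log2 -1.33). The microsomal and the soluble hydrolase genes moved in opposite directions, each past the test. With the 3 other scalings 3 of the list fell and 1 to 2 rose, and 3 fell without either Exosc3-present library.

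**Figure D2:**
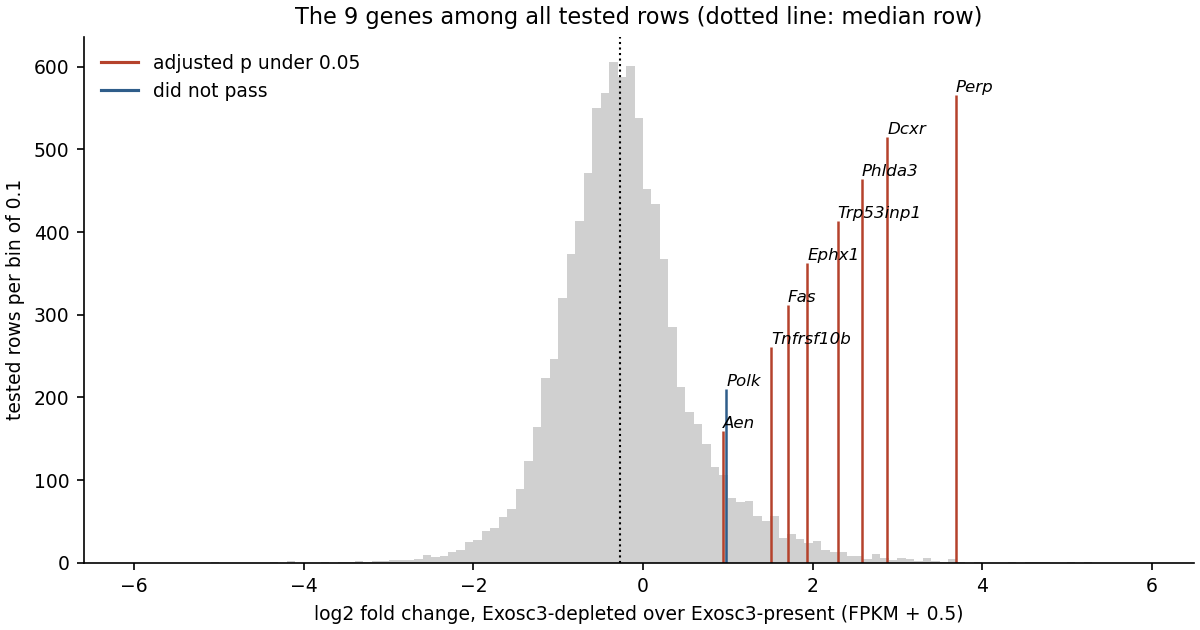
Number of tested rows by log2 fold change (Exosc3-depleted over Exosc3-present, on the FPKM + 0.5 scale, bins of 0.1), with vertical lines for the 9 genes. Line heights only separate the labels. The genes lie right of the median row at -0.27, from Aen at 0.95 to Perp at 3.69, and Polk (blue) did not pass.

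Set in order of rise on the log2(FPKM + 0.5) scale, Perp (log2 3.69), Dcxr (2.88), Phlda3 (2.58), Trp53inp1 (2.30), Ephx1 (1.94), Fas (1.71), Tnfrsf10b (1.51), Polk (0.98) and Aen (0.95) had 95% intervals that overlapped those of their neighbours at each step. The place of Fas comes from that offset: it was at 3.42 with a pseudocount of 0.1 and at 5.50 with limma-voom on recovered fragments, above Perp at 3.88. The interval of Perp (3.09 to 4.28) did not reach that of Ephx1 (1.52 to 2.36), and that of Aen (0.56 to 1.34) did not reach that of Ephx1 either. By level, Exosc3-depleted cells held most Phlda3 (mean 126 FPKM, SD 27.3) and Dcxr (113, SD 17.5), whose replicates overlapped, then Perp (48.4, SD 16.3), Aen (32.8, SD 0.46) and Trp53inp1 (21.6, SD 9.8). In Exosc3-present cells the order was Phlda3 (20.4, SD 0.52), Aen (16.8, SD 0.74), Dcxr (14.8, SD 0.49), Ephx1 (4.63, SD 0.31), Trp53inp1 (3.85, SD 1.05), Tnfrsf10b (3.29) and Perp (3.19), each with n = 2. Replicates of Trp53inp1 overlapped those of Ephx1, Tnfrsf10b and Perp, and those of Tnfrsf10b overlapped those of Perp. Polk and Fas were the lowest in both groups.

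**Figure D3:**
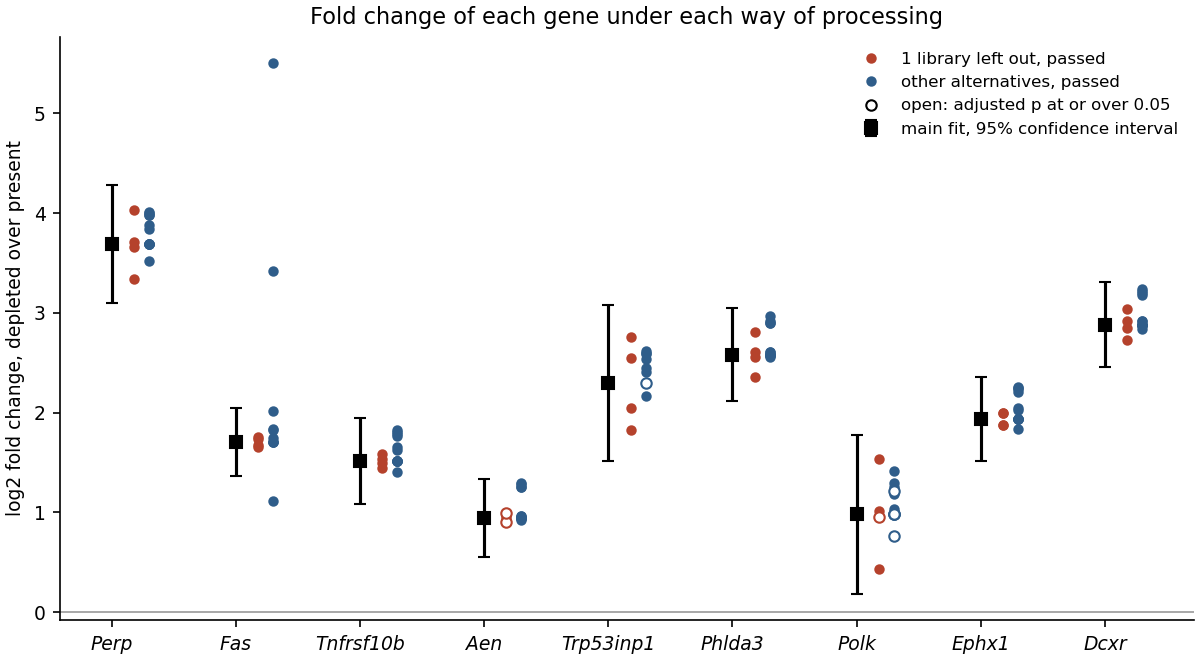
Log2 fold change (Exosc3-depleted over Exosc3-present) of each gene with its 95% confidence interval (black), with 1 library left out (red) and under the other alternatives (blue). Open points have an adjusted p of 0.05 or more. No point lies below 0; open points occur for Aen, Polk and Trp53inp1, and Fas moves most with the pseudocount, reaching 5.50 with limma-voom on recovered fragments.

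The 2 Exosc3-depleted libraries did not hold the 9 genes in the same proportions. Exosc3-depleted replicate 2 had more of 6 genes and less of 3. Polk was 2.71 times, Trp53inp1 1.94 times and Perp 1.62 times as high in Exosc3-depleted replicate 2 as in replicate 1, whereas Phlda3 was at 0.734, Dcxr at 0.803 and Ephx1 at 0.918 of the replicate 1 value. Over all tested rows the difference between these libraries moved with the length of the gene model, as recovered from the table (Spearman's rho 0.457 across 9336 rows that share the same libraries). Within the Exosc3-present pair the difference also moved with length, less strongly (rho 0.278), with medians of -0.0009 in the shortest rows and 0.12 in the longest. For the Exosc3-depleted pair the median log2 difference, replicate 2 minus replicate 1, was -0.13 in the shortest 1871 rows (up to 1321 bases). It was 0.49 in the longest 1867 rows (from 4251 bases). Trp53inp1 (5430 bases) and Polk (4226 bases) have long models, and Dcxr (918 bases) has the shortest of the 9. Polk still had a log2 difference of 1.11 where the median of rows of its length was 0.24. Trp53inp1 was at 0.93 where that median was 0.49, and Phlda3 (1467 bases) at -0.44 where it was -0.07. Perp (1900 bases) also differed from rows of its length (1322 to 2075 bases), with a log2 difference of 0.69 where the median was -0.07. For Perp 88.2% of all tested rows had a smaller difference, and for Polk 98.7%. The length trend was then taken out of each library, an alternative added after these values were seen. In that fit 9 of 9 genes rose, with log2 fold changes of 1.26 to 3.98, beside 22.5% of all tested rows called higher. The same step moved the median row from -0.27 to -0.001.

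**Figure D4:**
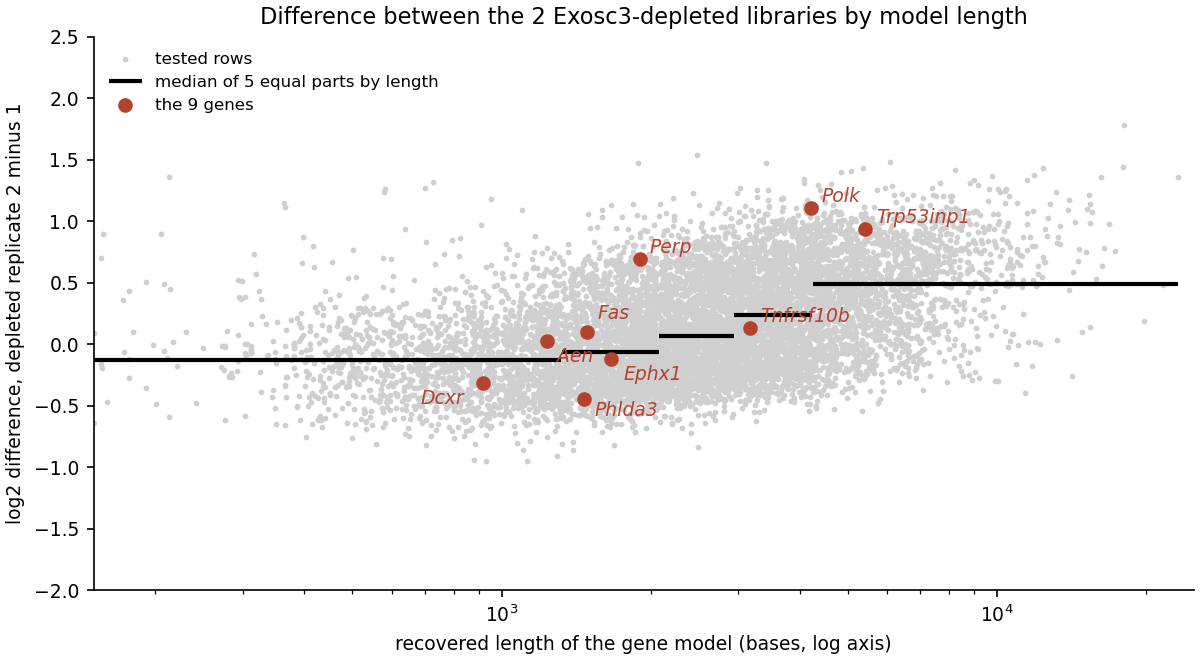
Log2 difference between Exosc3-depleted replicate 2 and replicate 1 against the recovered length of the gene model (log axis), for tested rows (grey) and the 9 genes (red). Black bars are medians of 5 equal parts of the rows by length, from -0.13 to 0.49; rows shorter than 150 bases are outside the axis. Polk, Trp53inp1 and Perp lie high, and Dcxr and Phlda3 low.

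Among 13 tested p53 apoptosis and arrest targets outside the set, 11 rose and 1 fell. Mdm2 is among the 11 and is counted again in the list of p53 and its regulators below. The median log2 fold change was 1.94 for the 9 genes, 1.44 for these 13 and -0.27 for the median row. Plk2, a p53-induced kinase, was at 54.8 and 81.3 FPKM in Exosc3-depleted cells, against 4.48 and 5.32 FPKM in Exosc3-present cells (log2 3.64). The antiproliferative gene Btg2 was at 24.5 and 26.0 FPKM in Exosc3-depleted cells, against 4.44 and 4.35 FPKM in Exosc3-present cells (log2 2.39). With no filter on low values 4 of the 13 rose, beside 3.45% of all rows called higher in that fit. With limma-voom 9 rose, beside 12.6% of tested rows. The number was 11 after median-of-ratios scaling, and 12 after quantile normalization and after scaling without the 50 highest rows. Those 3 fits called 16.5% to 18.8% of tested rows higher.

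Of 9 tested genes for p53 and its regulators 4 rose and 2 fell. Trp73, a p53 relative, was at 2.65 and 2.87 FPKM in Exosc3-depleted cells, against 0.274 and 0.291 FPKM in Exosc3-present cells (log2 2.06). It reached the filter only through its Exosc3-depleted libraries, and with rows filtered on the Exosc3-present libraries 3 of 8 genes of the list rose. Mdm2, the ligase that opposes p53, was at 32.7 and 79.4 FPKM in Exosc3-depleted cells, against 6.11 and 5.56 FPKM in Exosc3-present cells, so its Exosc3-depleted libraries lay apart in the same direction as those of Polk and Trp53inp1. Trp53, the p53 gene itself, was chosen after its values were seen and was at 157 and 135 FPKM in Exosc3-depleted cells, against 108 and 107 FPKM in Exosc3-present cells. Its log2 fold change of 0.43 did not pass (limma adjusted p = 0.0709). Under each of the 3 other scalings 5 genes of the list rose, beside 16.5% to 18.8% of tested rows called higher. With no filter on low values 1 rose, beside 3.45% of all rows. With 1 library left out the list median ran from log2 0.38 to 0.49.

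Around Perp, of 8 tested genes of the PMP22 family and of desmosomes 2 rose and 2 fell. Emp3, a family member, was at 11.8 and 11.1 FPKM in Exosc3-depleted cells, against 1.95 and 2.27 FPKM in Exosc3-present cells (log2 2.20). Dsg2, a desmosomal cadherin, was at 1.07 and 1.73 FPKM in Exosc3-depleted cells, against 3.45 and 3.71 FPKM in Exosc3-present cells (log2 -1.12). Dsg2 did not pass under scaling without the 50 highest rows (adjusted p = 0.0537), and the list had 1 higher and 1 lower without either Exosc3-present library.

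**Figure D5:**
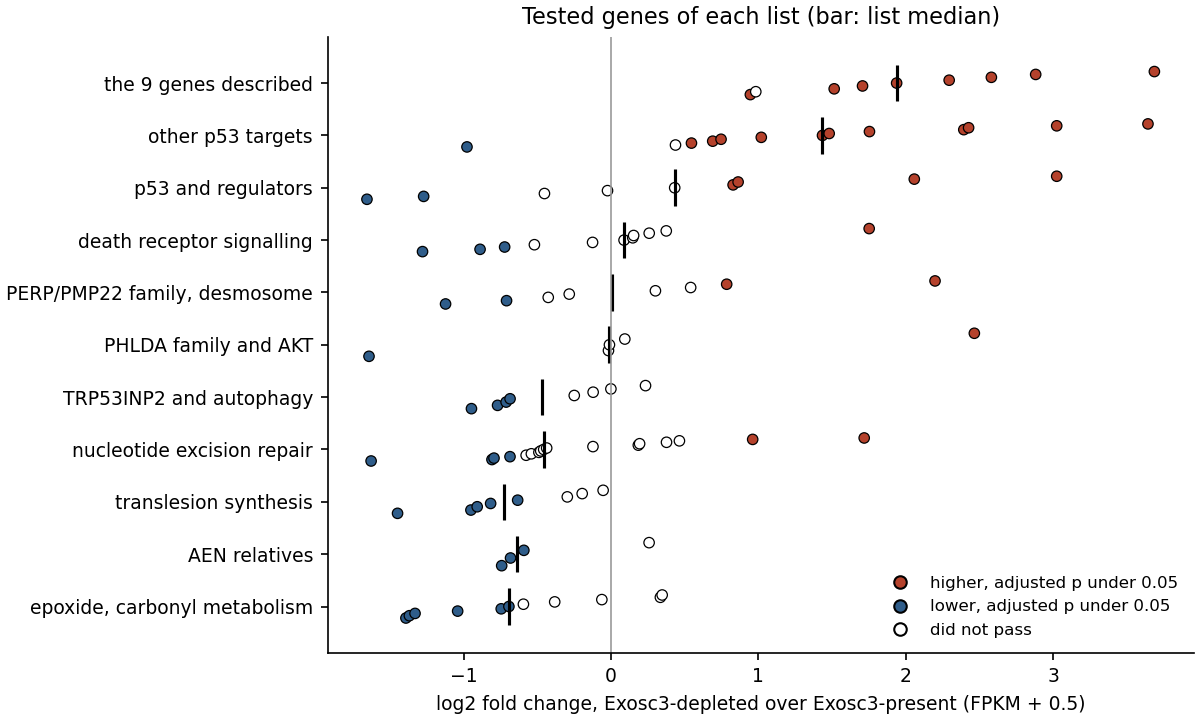
Log2 fold change (Exosc3-depleted over Exosc3-present, FPKM + 0.5) of every tested gene of each list, with a bar at the list median. Red points were called higher, blue points lower, and open points did not pass. The 9 genes and the other p53 targets lie mostly right of 0 (medians 1.94 and 1.44), and translesion synthesis lies left (-0.72).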

How the data were processed

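The deposited table gives FPKM for 22883 UCSC gene models in 4 columns, 1 per library, per the file headers. The build was mm9, and the tools included edgeR, STAR, Bowtie2, bedtools and Picard, per the submitters' processing notes. How FPKM was computed and whether strand was used in counting is not given in the sources used here. In GENCODE M21 (GRCm38) the exons of the 9 genes overlap no other gene's exons.

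Rows with a mean of at least 0.5 FPKM were tested with limma 3.58.1 (R 4.3.3) on log2(FPKM + 0.5), with an intensity trend, no covariate, two-sided p-values and Benjamini-Hochberg adjustment over all 9336 rows (threshold 0.05). Exosc3-depleted was compared with Exosc3-present, with 2 libraries each. A fold written without log2 is the mean FPKM of one group divided by that of the other. Fragments, per-million totals and model lengths were recovered from the spacing of FPKM values. All 15471 rows above 0 gave whole fragments within 0.004 of a fragment, wider at high counts, and the shortest fitting length was kept. Recovered fragments served depth, counting intervals, length and limma-voom, not the main test. The scripts were tested on simulated data.

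The members, gene lists and tests were chosen with earlier results of these data known, so lists are described by counts and medians with no set test. Named list genes are the 2 tested genes with the smallest p in each list, and others are said to be picked later. List genes were matched by symbol, and Pidd1 and Akr1a1 through an older one. Alternatives covered the pseudocount, the filter, 3 other scalings, the trend, limma-voom, the replicate number as a block, each library left out and a length trend.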

Additional observations from a re-analysis of the deposited data

How the results depend on the processing

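Under 16 alternatives the log2 fold changes of the 9 genes kept a positive sign wherever they were fitted (Fas and Polk dropped out at a minimum mean of 2 FPKM, and Fas when rows were filtered on Exosc3-present libraries). Among fits of all 4 libraries, the share of tested rows called higher ran from 3.45% with no filter on low values to 22.5% with the length trend removed. The number of the 9 genes called higher lay between 7 and 9 and the number called lower was 0. With 1 library left out, the lowest log2 fold change among the 9 genes ran from 0.43 to 0.96, and the median row from -0.36 to -0.19. In those fits the lone library is assumed to vary like the pair of the other group, although log2 differences within a pair had an SD of 0.432 in Exosc3-depleted and 0.188 in Exosc3-present cells. Perp, Fas, Tnfrsf10b, Dcxr, Phlda3 and Ephx1 passed under every alternative in which they were fitted. Aen missed the threshold without either Exosc3-present library and Trp53inp1 with no filter on low values. Polk passed under 9 of its 15 alternatives, with log2 fold changes of 0.43 to 1.54. Scaling moved the median row by up to 0.30 on the log2 scale, and the median of the 9 genes was 2.24 after median-of-ratios scaling, 2.21 after quantile normalization and 2.26 without the 50 highest rows. With the replicate number as a block 9 of 9 genes rose, beside 15.3% of tested rows called higher. Same-numbered libraries shared only a number, with a correlation of their deviations of 0.244 across rows, and the block left 1 residual degree of freedom, so its p-values rest on the pooled spread of all rows. Depth limits Fas most, with 3 fragments and 1 fragment in the Exosc3-present libraries.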
